A study of Flaveria angustifolia and Flaveria bidentis and Flaveria brownii with 21 samples.

Results

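The 9 regulators described here control chloroplast development and plastid transcription, and they were followed through the leaf transcriptomes of the genus Flaveria, a group of the daisy family in which close relatives use C3, intermediate (C3-C4), C4-like and C4 photosynthesis. They were taken by their Arabidopsis locus identifiers from a table of 20551 loci, where all 9 had a row. The members are 5 transcription factors, GLK1 (AT2G20570), GLK2 (AT5G44190), GNC (AT5G56860), GNL (AT4G26150) and HY5 (AT5G11260), and 4 sigma factors, SIG1 (AT1G64860), SIG2 (AT1G08540), SIG5 (AT5G24120) and SIG6 (AT2G36990). The study sequenced leaf RNA to build a phylogeny of the genus. It holds 18 Flaveria libraries from 11 species grown in a greenhouse, 10 of juvenile leaves that had just begun to expand on the main stem and 8 of mature leaves, the newest fully expanded ones. Each library pooled leaves of several plants, and there was 1 library per species and stage. No treatment, mutation or transgene was involved. Another 3 mature-leaf libraries of outgroup plants were not analysed here.

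The 7 species with both stages were F. cronquistii and F. pringlei (C3), F. angustifolia and F. pubescens (C3-C4), F. brownii (C4-like), and F. bidentis and F. trinervia (C4). Juvenile leaves alone were sampled from F. sonorensis (C3-C4), F. palmeri and F. vaginata (both C4-like), and mature leaves alone from F. kochiana (C4). The photosynthetic types are textbook knowledge of these species and are not in the labels. The C4-like and C4 species fall in 2 lineages, clade B with F. brownii (and the C3-C4 species F. pubescens) and clade A with the rest, so photosynthetic type and shared ancestry cannot be told apart.

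In plants, the chloroplast is built from proteins encoded in both the nucleus and the plastid genome, and the regulators described here act at both places. The GARP-family factors GLK1 and GLK2 work in the nucleus, where in Arabidopsis they act redundantly to switch on genes for chlorophyll synthesis and the light-harvesting antenna. GNC and its paralog GNL are GATA factors that in Arabidopsis respond to light and cytokinin and promote greening, and HY5 is the bZIP factor that acts downstream of the photoreceptors when a seedling meets light. Sigma factors are nucleus-encoded proteins imported into the plastid, where each directs the bacterial-type plastid RNA polymerase to a set of promoters. In Arabidopsis, SIG2 is best known for plastid tRNA genes, SIG6 for early seedling greening, SIG5 for the light- and stress-responsive promoter of the photosystem II gene psbD, and SIG1 for photosystem I genes.

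Values are RPM, reads per 1000000 reads, whose level depends on gene length, so levels are compared between libraries and not between genes. The libraries held 5.4 to 9.15 M reads (M for 1000000) assigned to loci, and a count of 0 allows a level of up to 0.328 to 0.556 RPM, for counting error only. The leaf marker RBCS1A, a small subunit gene of Rubisco, lay between 1661 and 26630 RPM in all 18 libraries, while 4 flower and meristem markers together held at most 12.0 RPM. Of these, the meristem gene STM was at 0 in 13 libraries, PI in 11, AG in 3 and AP3 in none, and PI and AP3 reached 9.08 and 9.10 RPM. The summed level of 10 dividing-cell markers (MCM2 to MCM7, PCNA1, AUR1, CDKB1;1 and CDKB2;2) separated the stages completely, at 94.9 to 576 RPM in juvenile and 12.1 to 62.6 RPM in mature leaves, and 10 of 10 passed as lower in mature leaves. Of 3 ageing markers, 2 passed as higher in mature leaves (3 with TMM scaling). Over all tested loci, 37.6% passed as lower and 12.7% as higher. The mature F. brownii library stood apart in 1 of these ageing markers, SAG12, at 865 RPM. The SAG12 median was 8.20 RPM over all libraries and 34.9 RPM over the mature libraries of the 7 species with both stages. SAG12 made up most of the 933 RPM that the 3 ageing markers summed to in mature F. brownii. In pooled tissue, fewer cells of a type and less RNA per cell cannot be told apart.

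**Figure D1:**
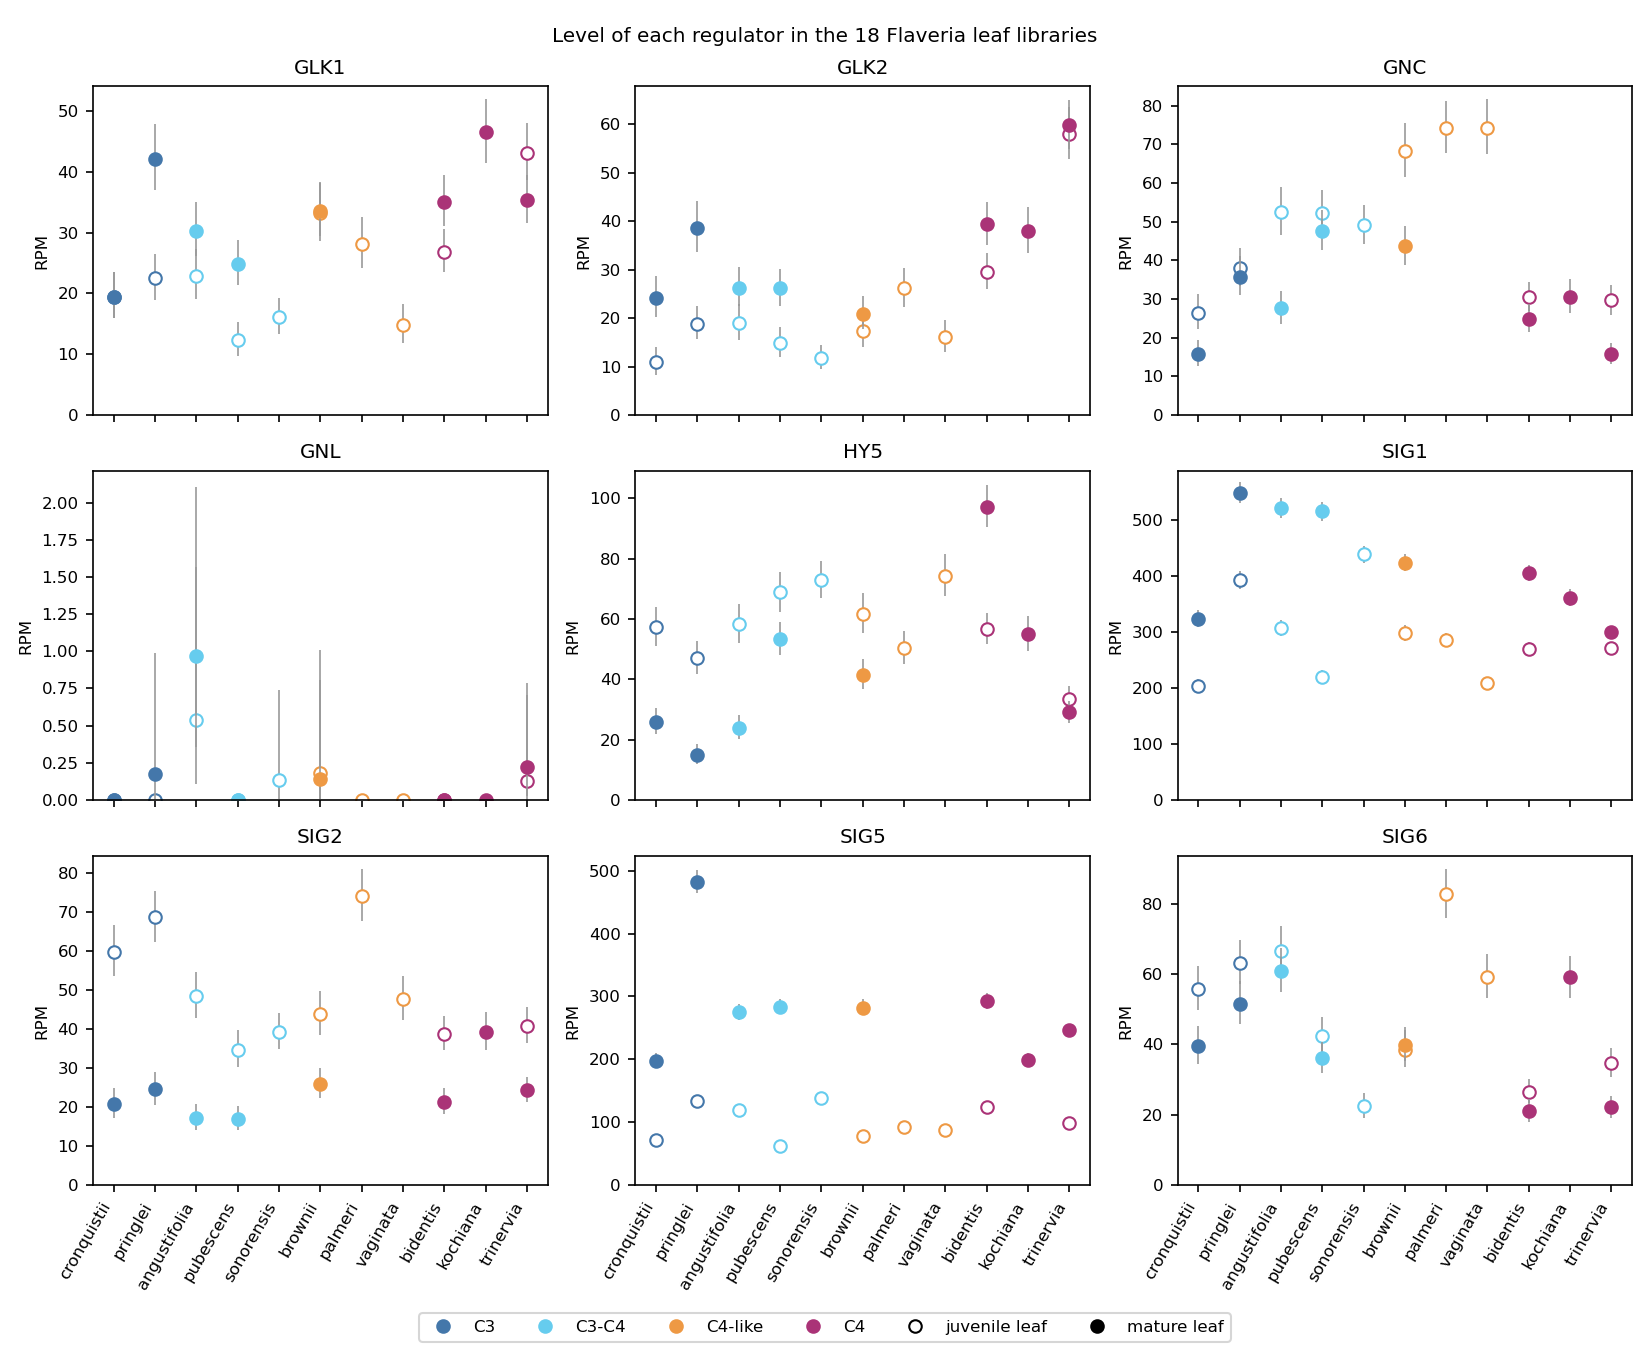
Level in RPM (linear axis from 0, own scale per panel) of the 9 regulators in each library, by species, with juvenile leaves as open and mature leaves as filled symbols and the colour giving the photosynthetic type; grey bars are exact 95% Poisson intervals that cover counting error only, and are not drawn for libraries at 0 reads. SIG5 is higher and SIG2 lower in the mature leaf of each of the 7 species with both stages, and GNL stays below 1 RPM.

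Leaf maturation was compared within the 7 species that had both stages. SIG5 rose in all 7 and SIG2 fell in all 7. SIG1 and GLK2 were also higher, and GNC lower, in the mature leaf of each species, while GLK1, HY5 and SIG6 did not pass the test. The comparison used limma on log2(RPM + 1) with species as a block, and a locus was called at a Benjamini-Hochberg adjusted p under 0.05 over all 14500 loci that averaged 2 RPM or more. Of the 8 members tested, 3 were called higher and 2 lower. That share is to be read against a background in which 50.3% of all tested loci were called, 1843 higher and 5448 lower, with a median difference of -0.31 on the log2 scale. The background itself depended on the scaling: with TMM factors the median moved to 0.001, with 3361 loci higher and 3154 lower, and 4 members were higher and 1 lower. Species are the replicates here, so the p-values measure the spread between species and not between plants of one species.

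SIG5 changed most among the 8. In the 7 juvenile libraries of this comparison it ranged from 61.7 RPM in F. pubescens over a median of 98.5 to 134 RPM in F. pringlei. In the 7 mature libraries it ranged from 198 RPM in F. cronquistii over a median of 282 to 483 RPM in F. pringlei. The groups did not overlap, and adding the 4 unpaired libraries left them apart, since F. sonorensis, the highest of all 10 juvenile libraries, stood at 138 RPM and mature F. kochiana at 199 RPM. How many of all loci keep the stages apart in this way was not counted. The increase was 1.58 ± 0.17 on the log2(RPM + 1) scale (SE, 7 species, limma adjusted p = 2.56e-05), or 2.996-fold, and in single species it ran from 1.21 in F. angustifolia to 2.18 in F. pubescens. With TMM scaling it was 1.93, and in 14 of 14 alternative settings it remained past the threshold.

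SIG2 moved the other way. Its juvenile levels ran from 34.7 RPM in F. pubescens over a median of 43.9 to 68.6 RPM in F. pringlei, and its mature levels from 17.0 RPM in F. pubescens over a median of 21.3 to 26.0 RPM in F. brownii. The paired groups did not overlap, which as for SIG5 was not set against all loci. The difference of -1.10 ± 0.17 (SE, 7 species, limma adjusted p = 0.000236) corresponds to 0.468 times the juvenile level. It was -0.76 with TMM scaling. F. kochiana, sampled only as mature leaves, did not share this low level: its SIG2 stood at 39.2 RPM, within the juvenile range, although its dividing-cell markers summed to 17.7 RPM, within the mature range.

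Because both genes are counted in the same library, the number of SIG5 reads per SIG2 read does not depend on scaling. Across all 10 juvenile libraries it ran from 1.20 to 3.52 with a median of 1.89, and across the 8 mature libraries from 5.08 in F. kochiana to 19.7 in F. pringlei with a median of 12.3. The ranges did not overlap in any photosynthetic type, which was not set against other pairs of loci, and C4-like had 1 mature library. SIG5 and SIG2 are the members with the largest rise and the largest fall, and each already kept the paired stages apart. A ratio of the pair must then keep the paired stages apart as well, so it adds no separate support. The ratio includes the lengths of the genes, so its change between stages can be read and its absolute size cannot. The dividing-cell markers separate the stages, so genes that differ between stages correlate with them over all libraries. Across the 18 libraries, the Pearson correlation of SIG5 with the 10 single markers lay between -0.934 and -0.898, against a median of -0.262 for all loci. For SIG2 it lay between 0.674 and 0.801, against 0.233. With the mean of each stage subtracted, the median over those markers was -0.615 for SIG5, against -0.105 for all loci. For SIG2 it was -0.048, against 0.041. These correlations are given as a description of libraries that share species and stage, and the part of dividing cells in the SIG5 and SIG2 differences was not tested.

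**Figure D2:**
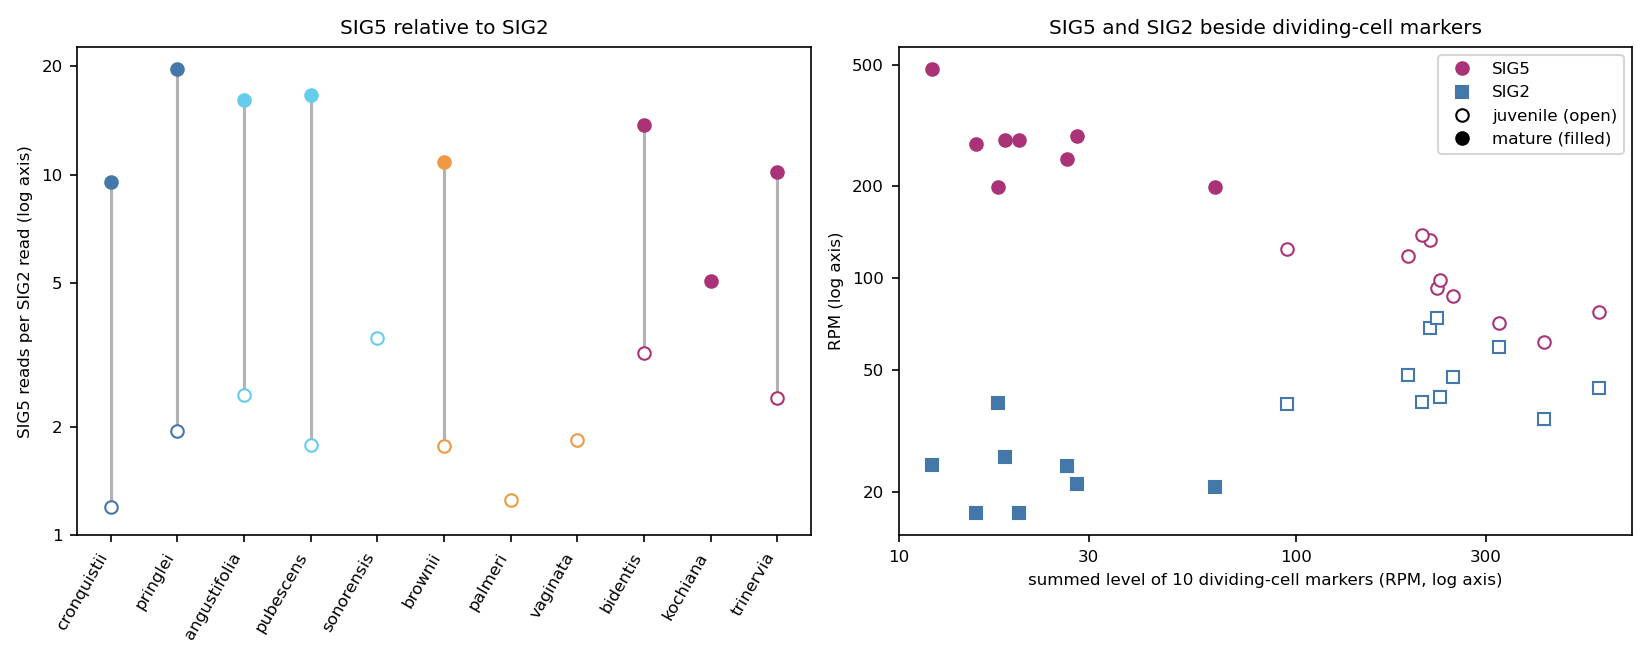
Left, SIG5 reads per SIG2 read (log axis) in each species, with the stages of 1 species joined by a line, open for juvenile and filled for mature leaves, coloured by photosynthetic type as in the plot of levels by library; right, RPM of SIG5 (circles) and SIG2 (squares) against the summed RPM of 10 dividing-cell markers (both log axes). The juvenile ratios lie between 1.20 and 3.52 and the mature ratios between 5.08 and 19.7, and the highest filled square is mature F. kochiana with SIG2 at 39.2 RPM.

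SIG1 rose along with SIG5, by less. Its juvenile levels ranged from 204 RPM in F. cronquistii over a median of 270.3 to 392 RPM in F. pringlei, and its mature levels from 299 RPM in F. trinervia over a median of 423 to 548 RPM in F. pringlei. The groups overlapped, but each species was higher in its own mature leaf. The difference was 0.62 ± 0.16 (SE, 7 species, limma adjusted p = 0.00592), or 1.54-fold, with single species between 0.15 and 1.22. SIG1 and SIG5 also varied alike among libraries of one stage, with a correlation of 0.841 over the 18 libraries and 0.762 after the stage means were subtracted. For SIG2 and SIG5 the same values were -0.750 and -0.042, so their opposition lay between the stages and not among species within a stage.

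SIG6 gave no call between stages. Juvenile levels ran from 26.5 over 42.3 to 66.6 RPM and mature levels from 21.0 over 39.4 to 60.8 RPM, with F. bidentis lowest and F. angustifolia highest in each. The difference was -0.29 (95% interval -0.61 to 0.03, limma adjusted p = 0.121), and its sign turned with TMM scaling, to 0.05. Among these 7 species F. angustifolia and F. pringlei were the highest, and F. bidentis and F. trinervia the lowest, at both stages. F. kochiana, the remaining C4 species, held 59.0 RPM in its mature leaf, above F. pringlei at 51.6 RPM. Among juvenile leaves as a whole, F. sonorensis was lowest at 22.4 RPM and F. palmeri highest at 82.7 RPM. SIG3, the remaining sigma factor with a row in the table, lay between 6.69 and 17.9 RPM and did not pass either (0.29, limma adjusted p = 0.296); it was called higher with TMM scaling. SIG4 was not analysed here. The sigma factors are a family, and how the authors' counting treated reads that match more than one member is not given in the sources used here, so reads shared between relatives make single-gene values uncertain.

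Of the 2 Golden2-like factors, GLK2 passed. Its juvenile levels ran from 10.9 RPM in F. cronquistii over a median of 18.9 to 58.0 RPM in F. trinervia, and its mature levels from 20.9 RPM in F. brownii over a median of 26.3 to 59.9 RPM in F. trinervia. The groups overlapped, as juvenile F. trinervia and F. bidentis (29.6 RPM) lay above the mature leaves of several species, yet each of the 7 species was higher in its own mature leaf. The difference was 0.57 ± 0.17 (SE, 7 species, limma adjusted p = 0.0156), or 1.49-fold, and it reached from 0.04 in F. trinervia to 1.08. Without F. pringlei the adjusted p was 0.0507 with a difference of 0.50.

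GLK1 gave a smaller difference that did not pass. It ran from 12.3 over 22.9 to 43.2 RPM in juvenile and from 19.4 over 33.6 to 42.2 RPM in mature leaves. It was higher in the mature leaf of 5 species, lower in 1, F. trinervia, and the same in F. cronquistii, at 19.4 RPM. The difference was 0.33 ± 0.18 (SE, 7 species, limma adjusted p = 0.148); with TMM scaling it was 0.67 and passed, at an adjusted p of 0.0175. The pair varied together across the 18 libraries, with a correlation of 0.782 and of 0.708 with the stage means subtracted. GLK1 and GLK2 are paralogs, and reads split between them could add to that likeness, which was not tested.

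GNC was lower in the mature leaf of 7 of 7 species. It ran from 26.5 RPM in F. cronquistii over 38.1 to 68.3 RPM in F. brownii in juvenile leaves, and from 15.7 RPM in F. trinervia over 27.6 to 47.6 RPM in F. pubescens in mature leaves. The difference of -0.52 ± 0.17 (SE, 7 species, limma adjusted p = 0.0200) corresponds to 0.698 times the juvenile level. It lay close to the median of all loci, and the call was lost with TMM scaling (-0.18, adjusted p = 0.414) and with edgeR on recovered reads (-0.19, adjusted p = 0.427). It was lost as well without F. angustifolia (-0.45, adjusted p = 0.0548) and without F. trinervia (-0.46, adjusted p = 0.0619).

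GNL was barely detected. It had between 0 and 6 reads per library, was at 0 in 10 of 18 libraries and reached 0.968 RPM in mature F. angustifolia, followed by 0.537 RPM in juvenile leaves of the same species. Its mean of 0.138 RPM kept it out of the comparisons as the only member that failed the filter. Reads of GNL that were assigned to its paralog GNC would not be seen here. Other B-class GATA factors were also scarce: GATA15, GATA16, GATA17 and GATA23 all fell under the filter, and their summed level was 2.45 to 13.6 RPM in juvenile and 0.161 to 1.88 RPM in mature leaves. Those ranges did not overlap over all 18 libraries, and they were neither tested nor set against all loci.

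HY5 missed the threshold. It was lower in the mature leaf of 6 species and higher in F. bidentis, where it went from 56.6 to 97.2 RPM. In the 7 juvenile leaves it ran from 33.6 RPM in F. trinervia over 57.2 to 68.8 RPM in F. pubescens, and in the mature leaves from 15.0 RPM in F. pringlei over 29.1 to 97.2 RPM in F. bidentis. The difference of -0.62 ± 0.25 (SE, 7 species) had a limma adjusted p of 0.0551. Without F. bidentis it was -0.85 with an adjusted p of 0.00722, and with TMM scaling and all 7 species it was -0.28 with an adjusted p of 0.382.

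**Figure D3:**
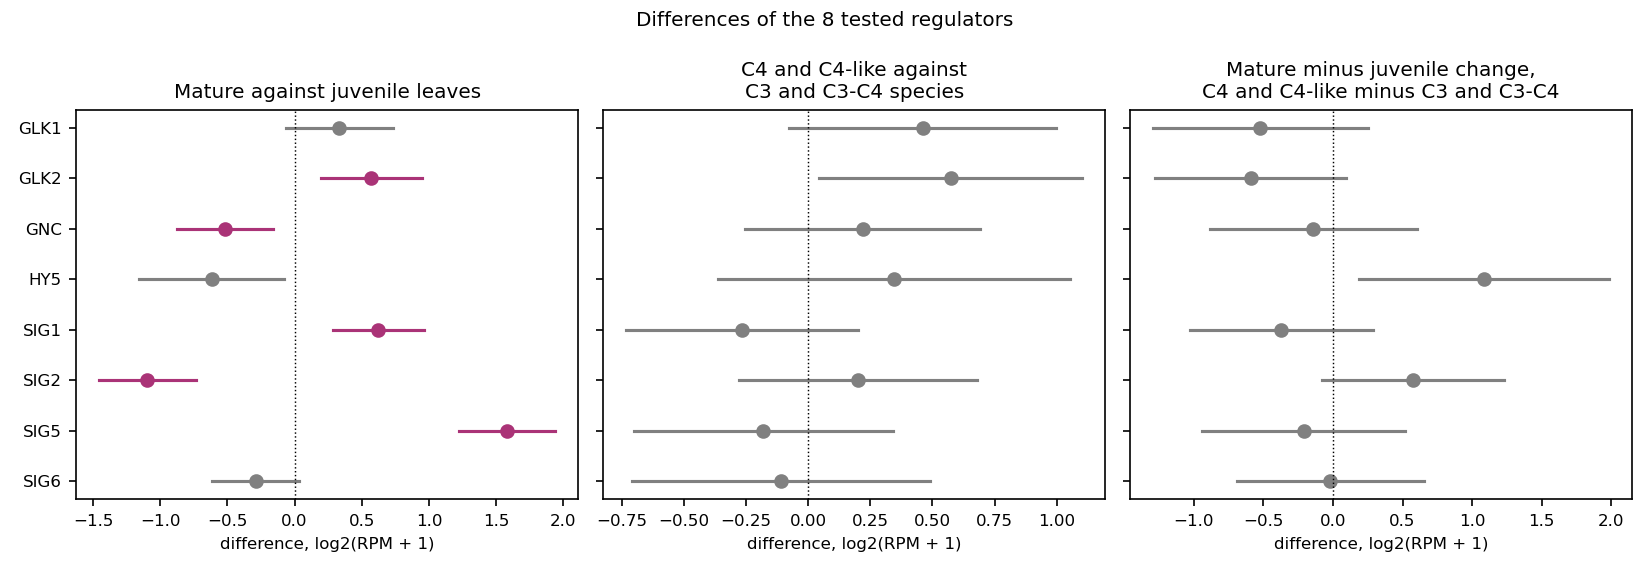
Difference of log2(RPM + 1) with its 95% interval from limma for the 8 tested regulators, between leaf stages (left, 7 species), between C4 or C4-like and C3 or C3-C4 species (middle, 11 species), and in the stage change between those types (right, 3 against 4 species); coloured points passed at an adjusted p under 0.05 and grey points did not. SIG5 lies farthest above 0 at 1.58 and SIG2 farthest below at -1.10 in the stage comparison, and no member passed in the others.

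Most transcripts of the enzyme that the sigma factors direct were lower in mature leaves. Over all tested loci, 37.6% were called lower and 12.7% higher as deposited. With TMM scaling 45% of the tested loci were called, 3154 of them lower and 3361 higher. All 4 genes of the plastid polymerase core, which are encoded in the plastid genome, were called lower in mature leaves (3 with TMM scaling): RPOA by -1.46, RPOC1 by -1.08, RPOB by -0.96 and RPOC2 by -0.61. Of 14 nucleus-encoded proteins associated with this polymerase, 12 were lower, with a median of -1.34 against -0.31 for all loci, and with TMM scaling 12 were lower and 1 higher. The largest differences were those of FLN2 (-2.25, a fructokinase-like protein), PAP7 (-1.79), PAP11 (-1.61) and PAP1 (-1.58). The exceptions were both iron superoxide dismutases of the complex, PAP4 (-0.59, limma adjusted p = 0.138) and PAP9 (0.86, adjusted p = 0.0744). The summed level of the 14 rose from 1459 to 2048 RPM in F. bidentis and from 437.5 to 885.7 RPM in F. trinervia. It fell in the other species with both stages. In mature F. bidentis most of that sum was PAP9 alone, at 1683 RPM. The sums therefore do not show that the list as a whole rose in these species, and the sum without PAP9 was not taken. SIG2 therefore fell, and SIG5 and SIG1 rose, while most transcripts of the enzyme they serve were lower.

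Other parts of plastid transcription moved in both directions, against a background of 12.7% of all loci called higher and 37.6% called lower. The phage-type polymerases RPOTP (-0.86) and RPOTMP (-0.74) were both called lower as deposited and neither with TMM scaling. Of 4 partners of sigma factors, 2 had enough reads: the chloroplast sensor kinase CSK was higher by 0.82 (limma adjusted p = 0.00991), and the plastid casein kinase subunit CKA4, which phosphorylates sigma factors, was lower by -0.42 (adjusted p = 0.0398), a call lost with TMM scaling. Among 9 plastid-encoded photosynthesis genes 1 passed, psbA, which encodes the D1 protein of photosystem II, at 0.94 (limma adjusted p = 0.0132). That share is near the 12.7% of all loci called higher. With TMM scaling 2 passed. The gene psbD, the target SIG5 is known for in Arabidopsis, differed by 0.25 ± 0.27 (SE, 7 species, limma adjusted p = 0.467). Its correlation with SIG5 over the 18 libraries was 0.021, against a median of -0.262 for all loci. Over the 9 genes this correlation ran from -0.404 for psaA to 0.499 for psbA, with a median of -0.096. Chloroplast loci held 0.568% to 1.65% of the reads, and whether the libraries were selected for poly(A) tails, which most plastid transcripts lack, is not given in the sources used here.

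The nuclear targets known for the GLK factors did not move as one. Of 14 antenna genes, 4 were higher and none lower in mature leaves, LHCA3 by 0.80, LHCA1 by 0.58, LHCB3 by 0.54 and LHCA2 by 0.49, and the median was 0.36 against -0.31 for all loci, of which 12.7% were called higher. With TMM scaling 10 were higher. Of 12 chlorophyll synthesis genes, 6 were lower and none higher, led by CHLD (-1.49, a magnesium chelatase subunit), PORB (-1.03), CHLG (-0.81) and PORA (-0.73), whereas with TMM scaling 3 were higher and 2 lower. That count is near the background, where 50.3% of all loci were called and 37.6% were called lower, and the list median of -0.41 is near that of all loci. GLK2 correlated with the 14 antenna genes at a median of 0.491 over 18 libraries and of 0.354 with stage means subtracted, against -0.240 and -0.152 over all loci. For GLK1 the antenna medians were 0.192 and -0.025, against -0.168 and -0.055 over all loci. With the 12 chlorophyll synthesis genes the median turned in sign once stage means were subtracted, from -0.128 to 0.076 for GLK2 and from -0.124 to 0.202 for GLK1.

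Genes of light and cytokinin signalling, the pathways in which HY5 and GNC act, were also read, against a background of 37.6% of all loci called lower and 12.7% called higher. Of 16 tested light signalling genes, 3 were lower, the photoreceptors PHYA (-1.03), UVR8 (-0.69) and PHYB (-0.59), which is a smaller share than that background, and 13 gave no call, among them COP1, the ubiquitin ligase subunit that targets HY5 (-0.04, limma adjusted p = 0.862), and the HY5 homologue HYH (-0.42, adjusted p = 0.131). With TMM scaling the calls in this list turned to 5 higher and 1 lower. Of 10 tested cytokinin signalling genes, 6 were lower and none higher (3 lower with TMM scaling), with a list median of -0.78 against -0.31 for all loci. The leading ones were the response regulators ARR7 (-1.18), ARR5 (-1.11) and ARR6 (-1.05) and the receptor AHK4 (-1.13).

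**Figure D4:**
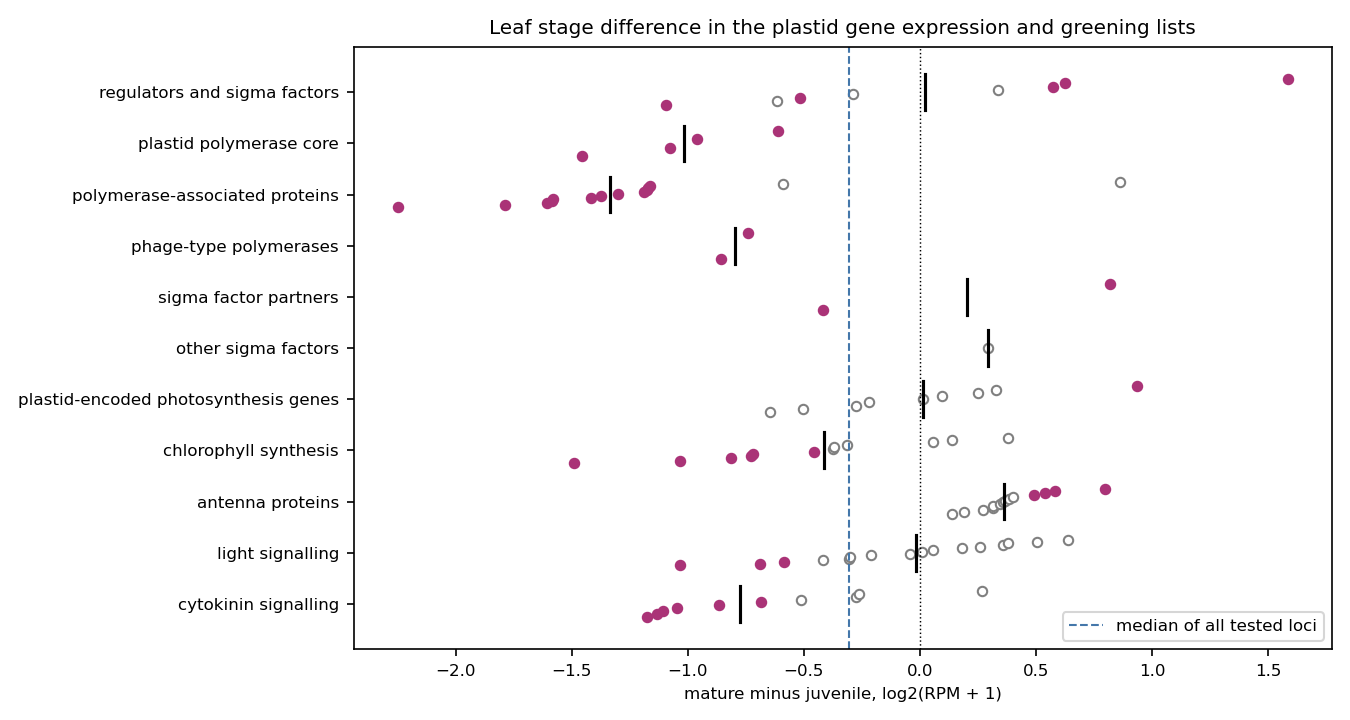
Mature minus juvenile difference of log2(RPM + 1) from limma over 7 species for each tested gene, in rows by list, with filled points for those past an adjusted p of 0.05, open points for the others, a black bar at each list's median and a dashed line at the median of all tested loci (-0.31). Polymerase-associated proteins sit at a median of -1.34 and antenna proteins at 0.36, while the regulators and sigma factors spread from -1.10 to 1.58.

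Photosynthetic type was compared over all 18 libraries in limma, adjusting for leaf stage and treating the libraries of one species as correlated. No member passed between C4 or C4-like and C3 or C3-C4 species, where 1.4% of 14479 loci did, and none between C4 and C3 species, where 1.27% did. By limma, 1 of 8 members had an unadjusted p under 0.05 in each of these contrasts, and it was GLK2 both times. Over all 14479 loci, 1791 and 2033 had one in these contrasts, a share near 1 of 8 each time. How evenly the reads of the 11 species were assigned to Arabidopsis loci was not tested. In the polymerase lists the single call was PAP6, lower in C4 than in C3 species by -1.81 (limma adjusted p = 0.0131), and in the antenna list LHCB2.2, lower in C4 and C4-like species by -1.13 (adjusted p = 0.0159), which TMM scaling lost.

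GLK2 and GLK1 had their highest levels in C4 species. For GLK2 the juvenile C4 leaves held 29.6 RPM in F. bidentis and 58.0 RPM in F. trinervia, the mature ones 39.4, 37.9 and 59.9 RPM in F. bidentis, F. kochiana and F. trinervia. Averaged by species, GLK2 stood at 43.8 ± 13.3 RPM in C4 (SD, n = 3), 20.46 ± 5.19 in C4-like (n = 3), 18.3 ± 5.74 in C3-C4 (n = 3) and 23.2 ± 7.91 in C3 species (n = 2). The C4 species means began at 34.5 RPM, above the highest mean of any other species at 28.8 RPM, and the other types did not differ beyond their spread. These means mix stages unevenly, and among mature leaves alone F. pringlei, a C3 species at 38.6 RPM, lay within the C4 range. The C4 against C3 difference was 0.92 (95% interval 0.15 to 1.69, limma unadjusted p = 0.0222, adjusted p = 0.263), and that of C4 and C4-like against the rest was 0.57 (0.05 to 1.10, adjusted p = 0.351).

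GLK1 followed a like order, at 38.9 ± 7.75 RPM in C4 (SD, n = 3), 25.5 ± 9.57 in C4-like (n = 3), 20.4 ± 5.53 in C3-C4 (n = 3) and 25.9 ± 9.12 in C3 species (n = 2). Here C3 and C4 species overlapped, as F. pringlei averaged 32.3 RPM and F. bidentis 31.0 RPM. These means mix stages unevenly too, as F. kochiana had a mature leaf only and F. palmeri, F. vaginata and F. sonorensis juvenile leaves only. Among juvenile leaves alone, GLK1 lay between 26.9 and 43.2 RPM in C4 and between 14.9 and 33.2 RPM in C4-like species. The C4 against C3 difference was 0.54 (95% interval -0.24 to 1.33, limma adjusted p = 0.552). The relation between the pair differed among C4 species: GLK2 reads per GLK1 read were 0.816 in F. kochiana and 1.69 in mature F. trinervia.

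GNC set C4-like apart from C4 species, a contrast that was not tested. The 3 juvenile C4-like leaves held 68.3 RPM in F. brownii, 74.3 RPM in F. palmeri and 74.3 RPM in F. vaginata, and these were the 3 highest of all 18 libraries. The C4 species, all from the same lineage as F. palmeri and F. vaginata, held 30.5 RPM in juvenile F. bidentis and 29.7 RPM in juvenile F. trinervia. By species, the means were 68.2 ± 10.6 RPM in C4-like (SD, n = 3), 46.3 ± 5.47 in C3-C4 (n = 3), 29.0 ± 11.2 in C3 (n = 2) and 27.0 ± 3.99 in C4 species (n = 3). These means mix stages, as F. palmeri and F. vaginata had juvenile leaves only. Among juvenile leaves alone the order was the same, with 49.1 to 52.5 RPM in C3-C4 and 26.5 to 38.1 RPM in C3 species, whereas mature F. brownii at 43.6 RPM lay below mature F. pubescens at 47.6 RPM. Pooling C4-like with C4 species joined the highest and the lowest levels, and that difference was 0.22 (95% interval -0.25 to 0.69, limma adjusted p = 0.759).

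For the other members the intervals were wide and included 0. In C4 and C4-like against C3 and C3-C4 species, HY5 differed by 0.35 (95% interval -0.36 to 1.05), SIG1 by -0.27 (-0.73 to 0.20), SIG2 by 0.20 (-0.28 to 0.68), SIG5 by -0.18 (-0.70 to 0.34) and SIG6 by -0.11 (-0.71 to 0.49). In C4 against C3 species, HY5 differed by 0.71 (-0.33 to 1.74) and SIG6 by -0.64 (-1.52 to 0.23). For SIG1, SIG2 and SIG5 the C4 against C3 differences were -0.19 (-0.87 to 0.49), -0.09 (-0.79 to 0.61) and -0.17 (-0.93 to 0.60). Every one of these intervals reaches at least 0.20 in either direction, so the data do not show that the types are alike.

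Whether maturation changed the members differently in the types was tested on the 7 paired differences, 3 of C4 or C4-like against 4 of C3 or C3-C4 species. No member passed, and 0% of all 14500 loci did, with 1027 loci at an unadjusted limma p under 0.05 and no other tool run. HY5 came closest: its change was 1.08 ± 0.41 higher in the C4 and C4-like species (SE, limma unadjusted p = 0.0224, adjusted p = 0.649). The single changes were 0.77 in F. bidentis, -0.56 in F. brownii and -0.20 in F. trinervia, against -1.25 in F. angustifolia, -1.12 in F. cronquistii, -1.59 in F. pringlei and -0.36 in F. pubescens. The groups overlapped, and without F. bidentis the difference was 0.70 (limma adjusted p = 0.822). The SIG2 change differed by 0.57 (95% interval -0.08 to 1.23, adjusted p = 0.729), and the SIG5 change by -0.21 (-0.94 to 0.52, adjusted p = 0.924).

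The members varied among libraries to unlike extents. Over the 18 libraries, SIG1 had the narrowest range among the 8 tested, with its highest library at 2.69 times its lowest, and its SD of log2(RPM + 1) stood at percentile 13.1 of 14479 loci. SIG5 had the widest, at 7.83 times and percentile 69.7, followed by HY5 at 6.50 times and GLK2 at 5.48 times. The loci most alike to each member over the 18 libraries were found by Pearson correlation and are named by locus only, since no names for them were at hand. SIG2 had the closest partners, AT5G55310 at 0.950 and AT3G03710 at 0.948. SIG1 followed with AT1G68010 at 0.935 and AT4G38970 at 0.911, and AT4G38970 was also the closest to SIG5, at 0.916, before AT5G67370 at 0.914. For GLK2 they were AT4G02770 at 0.906 and AT4G03520 at 0.904, for SIG6 AT4G26370 at 0.904 and AT1G10910 at 0.884. GNC (AT1G28170 at 0.852, AT1G74060 at 0.848), HY5 (AT3G08610 at 0.844, AT5G08740 at 0.843) and GLK1 (AT4G20380 at 0.841, AT4G03420 at 0.838) had the least similar ones. These values were picked as the highest of 14479 loci over libraries that share stage and species, and are descriptions with no test.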

How the data were processed

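The authors deposited 1 table of reads per 1000000 reads (RPM) per Arabidopsis locus for the 18 Flaveria libraries. TAIR version 10 is named in the submitters' processing notes; RNA was extracted with hot acid phenol and an RNeasy kit and sequenced on Illumina, per the labels' protocols. The aligner, the counting rule and strand use are not given in the sources used here. Reads of all species were assigned to Arabidopsis loci, so divergence from Arabidopsis can lower a species' level. All RPM values were whole multiples of 1 read (100% within 0.001 read), which gave the depths, 5.4 to 9.15 M reads.

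From these values log2(RPM + 1) was taken, and loci averaging 2 RPM or more in the libraries of a fit were tested with limma 3.58.1 (trended variances) in R 4.3.3, adjusted over all tested loci by Benjamini-Hochberg at 0.05. Stages were paired by species, which the labels name; deviations of the stages of 1 species correlated at 0.44 to 0.717 over 14500 loci. Type fits used a species correlation of 0.493. Alternatives were TMM scaling, nuclear loci only, a pseudocount of 0.5, no filter or a filter of 5 RPM, each species left out, no block, edgeR 4.0.16 on recovered reads, 1 value per species, and each stage alone. The fits were tested on simulated data. The text names every member, up to 4 called genes of each list with the largest differences, and the 2 loci most like each member; the remaining genes named were chosen after their values were seen. Members and lists were chosen with earlier results of these data known. Fold values are on the log2(RPM + 1) scale.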

Additional observations from a re-analysis of the deposited data

Results flagged for a closer look

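Of 27 groups of values examined for a library that stands apart (each member in the juvenile, mature and paired sets), 6 held one by Dixon's criterion. Chance meets it in about 1 of 20 independent groups of normally distributed values. The RPM values were not transformed and the groups share libraries, so the count of 6 cannot be read against that rate. GLK2 in F. trinervia was the highest of the 10 juvenile libraries at 58.0 RPM and of the 8 mature libraries at 59.9 RPM. SIG5 in mature F. pringlei stood at 483 RPM, and SIG2 in mature F. kochiana at 39.2 RPM. GNL stood out in F. angustifolia, at 0.537 RPM in juvenile and 0.968 RPM in mature leaves, which are 3 and 6 reads.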

How the results depend on the processing

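The stage calls of SIG5, SIG2 and SIG1 held in all 14 settings run. Without the species as replicate block, 3 members and 3840 loci passed in place of 5 and 7291, and the calls of GLK2 (adjusted p = 0.207) and GNC (0.208) were lost. Leaving out 1 species gave 4 to 6 members and 6023 to 7187 loci. SIG6 changed sign between stages with TMM scaling (0.047) and edgeR (0.052). No member passed a type contrast in any setting run. For C4 and C4-like against the rest, 203 loci passed, 637 with edgeR, 98 with 1 value per species, 36 in juvenile and 7 in mature libraries, and 83 (without F. cronquistii) to 413 (without F. brownii) with 1 species left out. For C4 against C3, 184 passed, 1123 with edgeR, 43 with 1 value per species, 12 in juvenile and 29 in mature libraries, and 38 to 261 with 1 species left out. The stage change by type gave 0 to 1 locus with 1 species left out. Signs turned in uncalled type differences. In juvenile libraries HY5 was -0.18 (C4 and C4-like against the rest) and -0.25 (C4 against C3), SIG2 -0.14 and SIG5 0.18. For C4 against C3, GNC was 0.104 with TMM and 0.056 with 1 value per species, and SIG2 was 0.034 with TMM, 0.011 with edgeR and 0.26 in mature libraries. With 1 species left out, C4 against C3 ran from -0.43 to 0.40 for GNC, -0.61 to 0.24 for SIG1, -0.33 to 0.10 for SIG2 and -0.71 to 0.39 for SIG5. For C4 and C4-like against the rest it ran from -0.295 to 0.088 for SIG6 and -0.45 to 0.092 for SIG5, and for the stage change by type from -0.19 to 0.15 for SIG6. The causes were not tested. Depth limits GNL, for which every count is 6 reads or fewer.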
